A study of Rattus norvegicus with 2 samples.

Results

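Genes for glucose uptake, glycolysis, lactate and pyruvate handling and the TCA cycle were examined in the adrenal medulla of rats during insulin-induced hypoglycemia. The group was fixed by a list of 46 gene symbols, covering glucose transporters, glycolytic enzymes, the pyruvate dehydrogenase complex with its kinases, TCA enzymes outside complex II, and the glucose-responsive arrestins Txnip and Arrdc4. Every probe set of the array named for exactly 1 of these genes was taken as a member. A total of 70 probe sets qualified, 64 ordinary ones and 6 array controls placed along Gapdh and Hk1, and the ordinary ones read 42 of the 46 genes, among 14217 genes read by the whole array. Of the other 4, Gapdh was read by control probe sets alone, the probe set for Pkm also carries the name of a pseudogene and was left out, and no probe set was named for Dlat or Fh in the annotation used here.

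Both groups consisted of adult male Sprague-Dawley rats with vascular catheters that went through an overnight fast and a hyperinsulinemic-hypoglycemic clamp on day 4, at a plasma glucose of 40 to 50 mg/dL, and were killed 30 min after the target was reached. The 2RH30 animals had received intraperitoneal regular human insulin over the 3 days before, to produce recurrent hypoglycemia (RH). The dose was 2 IU/kg per injection, with 2 injections a day and only 1 on day 3. The 2RS30 animals had received saline instead, so that the clamp was their first hypoglycemia. RNA from 6 animals was pooled per group and read on 1 Affymetrix rat array per pool. No difference below therefore has a replicate check, the spread between animals is not known, and no p-value is given. Since insulin was infused into both groups, a response common to them does not appear in the comparison, and fewer cells of a type cannot be told apart from less RNA per cell.

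Glucose enters cells through facilitative transporters, is trapped by hexokinase and is split by glycolysis into pyruvate. Pyruvate is then either reduced to lactate or carried into the mitochondrion, where the pyruvate dehydrogenase complex turns it into acetyl-CoA for the TCA cycle. The kinases of the PDK family phosphorylate and switch off that complex, and PDP phosphatases switch it on again. Chromaffin cells, which make and secrete epinephrine when glucose falls, draw on these pathways for the ATP that loads and releases their granules.

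The E1 subunits of pyruvate dehydrogenase, Pdha1 and Pdhb, were 2.71-fold and 3.50-fold higher in 2RH30 than in 2RS30. Ogdh, Idh2 and Suclg2 of the TCA cycle were 2.25-fold to 2.53-fold higher, as were the glycolytic enzymes Aldoc and Pgam1 (2.39-fold and 2.22-fold) and the insulin-responsive transporter Slc2a4 (2.59-fold). Ldhb, the lactate dehydrogenase subunit of oxidative tissues, was 2.22-fold higher in 2RS30. In all, 8 of 42 genes (19.0%) were 2-fold or more higher in 2RH30, where 11.5% of all genes on the array were, and 1 gene (2.38%) was 2-fold or more lower, where 9.62% of all genes were. Where a gene has several probe sets, the brightest one over both arrays stands for it in these counts. A probe set is called dim where it lay below the array median in both pools (5.50 and 5.51). Dim ones were kept, and made up 17 of the 64 ordinary probe sets and 6 of the 42 genes. Among genes that were not dim, the share 2-fold or more higher was 22.2% of 36 members and 14.98% of all, and the median difference 0.40 and 0.26 (level-adjusted 0.10 and -0.01). A gene low in 2RS30 passes that filter through 2RH30 alone, so these shares are no separate support. Over the 64 ordinary probe sets, 14 (21.9%) were 2-fold or more higher and 3 (4.69%) lower, against 10.4% and 12.1% of all probe sets. The median difference, always 2RH30 minus 2RS30 on the log2 scale, was 0.32 over the 42 genes and 0.11 over all genes.

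The difference between the arrays moved with signal level, and this bears on every value below. The 10 percent brightest probe sets had a median difference of 0.44, against 0.02 over all probe sets. A level-adjusted difference, from which the lowess curve of difference on level was subtracted, is therefore given beside the deposited difference. Of the control transcripts added to the hybridization mix, only bioB and cre were summarized. They differed by a mean of -3.25 for bioB (6 probe sets) and -0.41 for cre (4 probe sets). Both were thus lower in 2RH30, unlike the brightest probe sets. Level-adjusted, 4 of 42 member genes (9.52%) were 2-fold or more higher, near the 8.95% of all genes, and 2 (4.76%) were lower, against 9.31% of all genes. The level-adjusted median of the members was 0.16, against 0.02 for all genes. The 4 that stayed above 2-fold were Pdhb, Slc2a4, Pdha1 and Aldoc, and the 2 below were Ldhb and Pgk1.

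**Figure D1:**
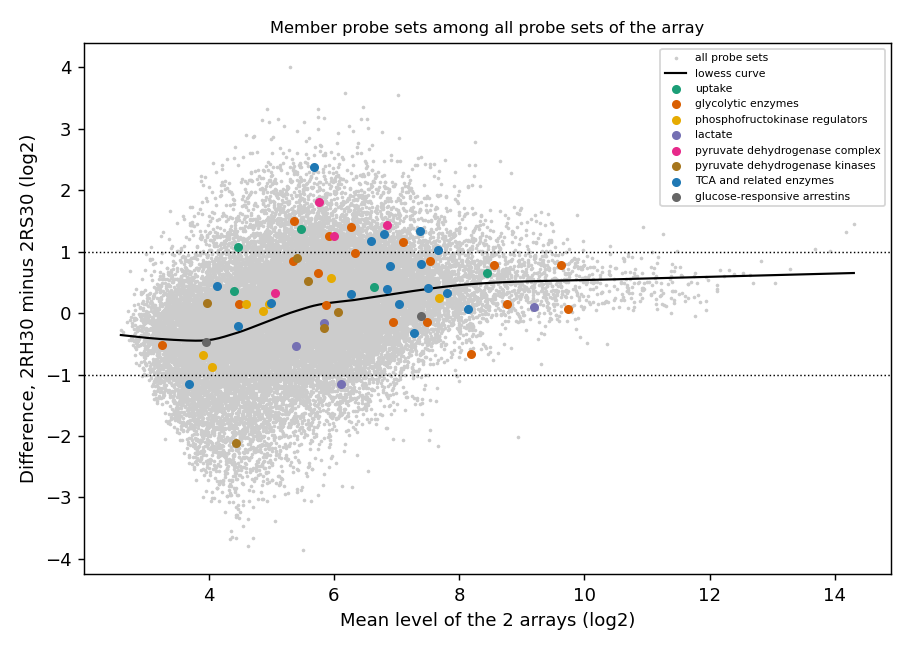
Vertical axis, log2 difference of 2RH30 from 2RS30; horizontal axis, log2 level averaged over both arrays; for all probe sets (grey) and the 64 ordinary member probe sets (coloured by role), with the lowess curve in black and 2-fold differences as dotted lines. The curve climbs with level, and of the member probe sets 14 lie on or above the upper dotted line and 3 on or below the lower.

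The tissue label was checked with marker genes. All 10 chromaffin markers measured lay above the array medians, such as Th, the first enzyme of catecholamine synthesis, at 11.45 in the 2RS30 pool and 11.96 in the 2RH30 pool. The 8 adrenal cortex markers were present too, among them the cholesterol carrier Star at 11.81 and 12.51, so that the dissected tissue held cortical RNA. Differences of the 8 cortex markers ran from 0.33 to 0.80 as deposited and from -0.18 to 0.22 level-adjusted, and those of the 10 chromaffin markers from -0.60 to 1.18 and from -0.82 to 0.71. Added up on the linear scale, the cortex markers differed by 0.67 and the chromaffin markers by 0.52 (log2), the 6 endothelial markers by 0.37 and the 3 red blood cell markers by 0.43 (median level-adjusted -0.11). Taken singly, the endothelial markers, 4 of them dim, ran from -0.61 to 0.88, and the red blood cell markers from -0.29 to 1.38. The macrophage and leukocyte list was split. C1qa, C1qb, C1qc and Cd68 were higher by 1.33 to 2.71, and Adgre1, Itgam, Csf1r and Ptprc had differences of -1.39 to -0.71, so that the sum of the 8, 0.68, stands for neither set. The sum of the 4 Schwann and sustentacular cell markers, 3 of them dim, differed by -0.11, and the single markers ran from -0.98 to 0.41. The part of these cell types in the differences of the metabolic genes was not tested.

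**Figure D2:**
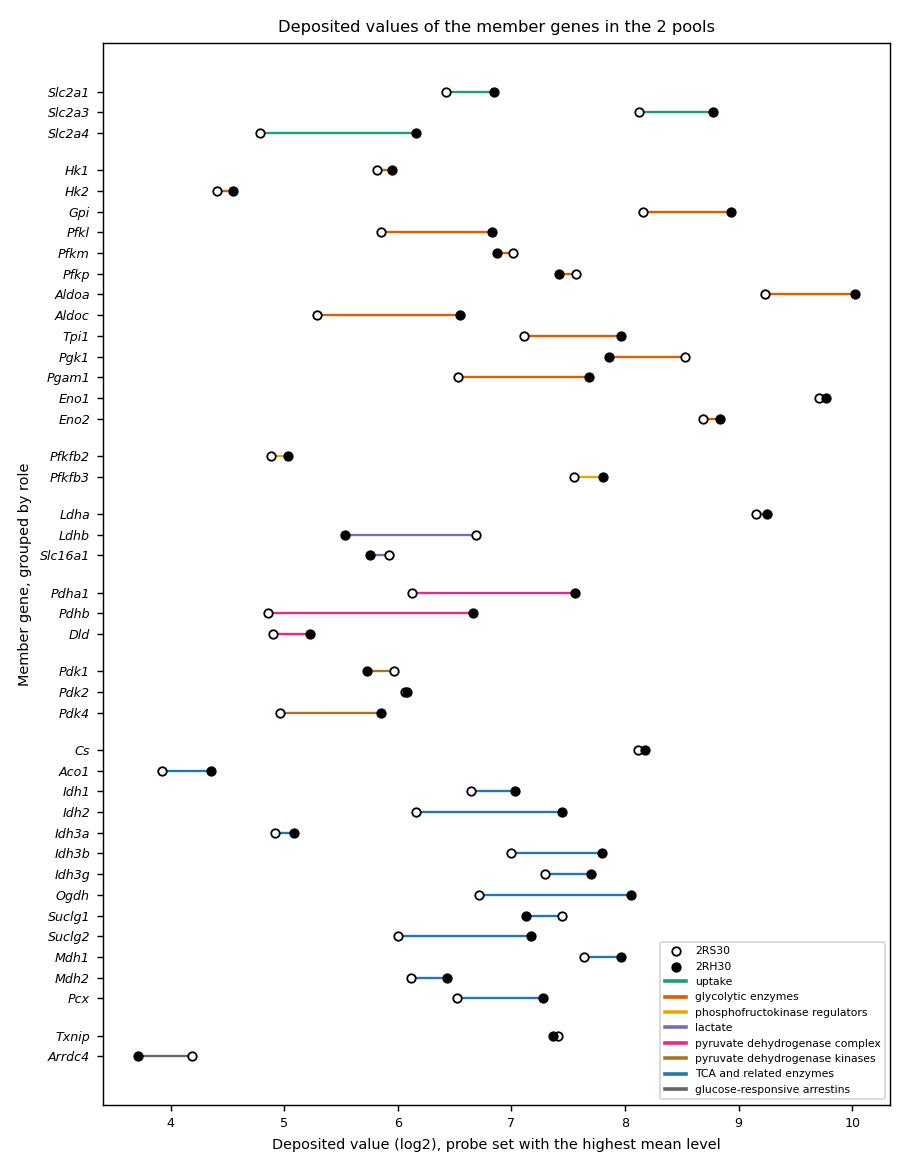
Deposited values (log2, horizontal axis) of the 42 member genes in 2RS30 (open) and 2RH30 (filled), 1 pool each, joined by a line coloured by role. The widest rightward steps belong to Pdhb, Pdha1 and Slc2a4, and the widest leftward step to Ldhb. Positions of different genes are not comparable, since each is a different probe set.

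Uptake was represented by 3 facilitative transporters. Slc2a1, the basal transporter GLUT1, read 6.43 in the 2RS30 pool and 6.85 in the 2RH30 pool, a difference of 0.42 (level-adjusted 0.16). Slc2a3, the high-affinity neuronal transporter GLUT3, read 8.12 and 8.78, a difference of 0.65 (level-adjusted 0.16). A second, dim Slc2a3 probe set read 3.93 and 5.003, a difference of 1.08 (level-adjusted 1.395). Slc2a4 is GLUT4, which insulin moves to the cell surface in muscle and fat. It read 4.79 and 6.16, a difference of 1.37 (level-adjusted 1.31), in a probe set that can match several transcripts. Its dim second probe set read 4.22 and 4.57, a difference of 0.35 (level-adjusted 0.69). All 5 probe sets of these 3 genes, 2 of them dim, were higher in 2RH30 in either form. Of all genes, each read from its brightest probe set, 56.1% were higher as deposited and 51.2% level-adjusted. These are shares of genes and not of probe sets. The 2 probe sets of Slc2a4 fell on different sides of the 2-fold line.

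Of the 13 glycolytic enzymes measured, 10 were higher in 2RH30 as deposited (76.9%, against 56.1% of all genes) and 7 level-adjusted (53.8% against 51.2%). As deposited 2 were 2-fold or more higher (15.4% against 11.5%) and 0 lower (against 9.62%). Level-adjusted 1 was higher and 1 lower (7.69% each), near the 8.95% and 9.31% of all genes. Their median difference was 0.16 as deposited and 0.26 level-adjusted. In the first steps, the hexokinase Hk1 read 5.82 in the 2RS30 pool and 5.94 in the 2RH30 pool, and 5.41 and 6.07 in its second probe set, with differences of 0.13 and 0.65 (level-adjusted -0.03 and 0.52). Hk2, the inducible hexokinase, was dim and read 4.41 and 4.55, a difference of 0.15 (level-adjusted 0.46). Gpi, which converts glucose 6-phosphate to fructose 6-phosphate, read 8.16 and 8.94, a difference of 0.78 (level-adjusted 0.28). The phosphofructokinase subunits went different ways. Pfkl, the liver subunit, read 5.85 and 6.83, just short of 2-fold at 0.98 (level-adjusted 0.76), whereas Pfkp, the platelet subunit, read 7.56 and 7.42, a difference of -0.15 (level-adjusted -0.54). Pfkm, the muscle subunit, read 7.01 and 6.87 in its brightest probe set, 4.61 and 6.11 in another and 4.92 and 5.77 in the last, so that its differences were -0.14, 1.502 and 0.85 (level-adjusted -0.45, 1.48 and 0.83).

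The later glycolytic enzymes were mostly higher as deposited. Aldoc, the brain-type aldolase, read 5.29 in the 2RS30 pool and 6.55 in the 2RH30 pool, a difference of 1.26 (level-adjusted 1.09). Pgam1, a phosphoglycerate mutase, read 6.53 and 7.68, a difference of 1.15 (level-adjusted 0.81). These are the 2 glycolytic genes past 2-fold. Tpi1, which interconverts the triose phosphates, and Aldoa, the widely expressed aldolase, differed by 0.85 and 0.79 (level-adjusted 0.45 and 0.26). The enolases Eno1 and Eno2 differed by 0.06 and 0.16, and lay below 0 level-adjusted, at -0.47 and -0.35. Pgk1, which makes the first ATP of glycolysis, gave no common answer. Its brightest probe set, of a kind that can match several transcripts, read 8.53 and 7.86, a difference of -0.67 (level-adjusted -1.14), and lay above only 1.05% of the 1001 probe sets nearest in mean level. A second one read 5.58 and 6.98, a difference of 1.398 (level-adjusted 1.19), and a dim further one read 3.51 and 2.99, a difference of -0.53 (level-adjusted -0.10).

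Gapdh and Hk1 have control probe sets near the 5' end, in the middle and near the 3' end of the transcript. Gapdh, the glycolytic dehydrogenase often used as a loading reference, was higher in 2RH30 at all 3 places, by 0.48, 0.56 and 0.78 from 5' to 3'. Its values in 2RS30 and 2RH30 were 11.43 and 11.90 at the 5' end, 11.13 and 11.69 in the middle, and 10.58 and 11.36 at the 3' end. Level-adjusted the 3 values were -0.11, -0.02 and 0.22, so the sign of Gapdh depends on the adjustment and on the place read. The Hk1 controls read 6.60 and 6.84 at the 5' end, 6.50 and 7.68 in the middle, and 7.52 and 7.55 at the 3' end. They differed by 0.24 at the 5' end, 1.18 in the middle and 0.03 at the 3' end (level-adjusted -0.04, 0.85 and -0.37). Actb, a cytoskeletal reference that is no metabolic gene, differed by 0.27 to 0.34, and by -0.31 to -0.21 level-adjusted. For Gapdh, 3' minus 5' was -0.85 in 2RS30 and -0.54 in 2RH30, and for Hk1 it was 0.91 and 0.70.

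**Figure D3:**
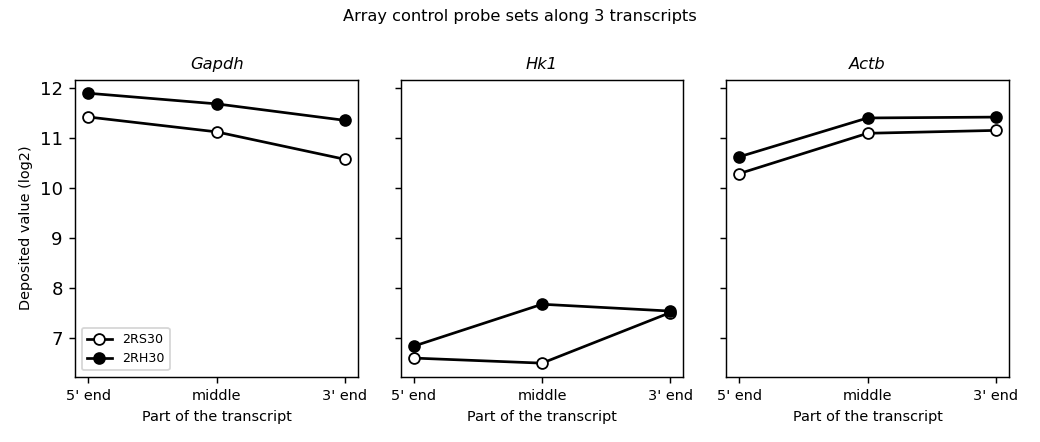
Deposited values (log2, vertical axis) of the array control probe sets at the 5' end, middle and 3' end (horizontal axis) of Gapdh, Hk1 and Actb in 2RS30 (open) and 2RH30 (filled). Gapdh lies 0.48 to 0.78 higher in 2RH30 at each place, whereas Hk1 parts by 1.18 in the middle and by 0.03 at the 3' end.

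The bifunctional enzymes Pfkfb2 and Pfkfb3 set the level of fructose 2,6-bisphosphate, the activator of phosphofructokinase. Pfkfb3 differed by 0.25 in its brightest probe set, from 7.55 in 2RS30 to 7.81 in 2RH30, and by 0.57 (5.67 and 6.24) and 0.14 (dim, 4.52 and 4.67) in the others. Level-adjusted the 3 were -0.17, 0.40 and 0.42, so the sign of the brightest turned. All 4 Pfkfb2 probe sets were dim. The 2 brighter ones read 4.88 and 5.03, and 4.86 and 4.89, with differences of 0.15 and 0.03 (level-adjusted 0.28 and 0.20). The dimmer ones read 4.25 and 3.56, and 4.50 and 3.62, with differences of -0.69 and -0.87 (level-adjusted -0.24 and -0.44). Neither gene reached 2-fold in any probe set.

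Pyruvate and lactate are interconverted by tetramers of Ldha, which favours lactate formation, and Ldhb, which favours pyruvate. Ldha read 9.15 in the 2RS30 pool and 9.25 in the 2RH30 pool, a difference of 0.10 (level-adjusted -0.42). Ldhb read 6.69 and 5.54, a difference of -1.15 (level-adjusted -1.34), and lay above 4.15% of the probe sets nearest in level. As deposited, the difference of Ldha exceeded that of Ldhb by 1.25. Both genes have a single probe set, so neither value has a second reading on the array. Slc16a1, the lactate and pyruvate transporter MCT1, was lower in both of its probe sets, from 5.92 to 5.76 and from 5.67 to 5.13, with differences of -0.17 and -0.54 (level-adjusted -0.32 and -0.57). All 3 genes of this step were at or below -0.32 level-adjusted.

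The bases before the start of Ldha and Ldhb are shown because the deposited differences of these subunits of 1 enzyme parted in these pools. Level-adjusted, both were lower in 2RH30 (-0.42 and -1.34). They are from RefSeq for GRCr8, 250 bases in the direction of transcription, at chr1:106507842-106508091 on the plus strand for Ldha and chr4:177177409-177177658 on the minus strand for Ldhb. Capitals mark an E box, CACGTG, and the core of the hypoxia response element, ACGTG, which every CACGTG also holds, searched on both strands.
Ldha: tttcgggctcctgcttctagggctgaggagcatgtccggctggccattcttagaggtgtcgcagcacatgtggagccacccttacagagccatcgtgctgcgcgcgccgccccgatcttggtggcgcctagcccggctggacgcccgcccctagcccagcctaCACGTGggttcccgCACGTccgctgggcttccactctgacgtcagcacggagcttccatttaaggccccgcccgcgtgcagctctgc
Ldhb: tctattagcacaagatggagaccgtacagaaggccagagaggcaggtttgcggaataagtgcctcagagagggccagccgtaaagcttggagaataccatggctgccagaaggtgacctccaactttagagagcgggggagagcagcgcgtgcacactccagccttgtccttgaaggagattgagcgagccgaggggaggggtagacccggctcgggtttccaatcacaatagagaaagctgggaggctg
The Ldha window holds 1 E box and 1 further core, and the Ldhb window holds neither.

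Pyruvate enters the TCA cycle through pyruvate dehydrogenase, and both of its E1 subunits were past 2-fold as deposited and level-adjusted. Pdha1, the catalytic alpha subunit that the PDK kinases phosphorylate, read 6.12 in the 2RS30 pool and 7.56 in the 2RH30 pool, a difference of 1.44 (level-adjusted 1.15). Its second probe set read 5.38 and 6.64, a difference of 1.26 (level-adjusted 1.08). The 2 readings of Pdha1 differed by 0.18, the narrowest range among the 15 member genes with several probe sets. Pdhb, the beta subunit, read 4.85 and 6.66, a difference of 1.81 (level-adjusted 1.67), and lay above 97.1% of the probe sets nearest in level. Pdhb has 1 probe set. Dld, the E3 subunit shared with the 2-oxoglutarate dehydrogenase complex, was dim and read 4.90 and 5.23, a difference of 0.33 (level-adjusted 0.41).

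The bases before the start of Pdha1 and Pdhb are shown because both genes were higher by more than 2-fold. They were taken in the same way, at chrX:38508908-38509157 and chr15:19182539-19182788, both on the plus strand. Capitals mark the same motifs and the FOXO motif GTAAACA.
Pdha1: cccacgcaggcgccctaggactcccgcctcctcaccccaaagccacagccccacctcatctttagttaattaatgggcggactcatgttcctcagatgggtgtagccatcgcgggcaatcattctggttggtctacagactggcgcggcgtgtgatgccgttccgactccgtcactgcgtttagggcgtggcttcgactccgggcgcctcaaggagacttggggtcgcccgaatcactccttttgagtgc
Pdhb: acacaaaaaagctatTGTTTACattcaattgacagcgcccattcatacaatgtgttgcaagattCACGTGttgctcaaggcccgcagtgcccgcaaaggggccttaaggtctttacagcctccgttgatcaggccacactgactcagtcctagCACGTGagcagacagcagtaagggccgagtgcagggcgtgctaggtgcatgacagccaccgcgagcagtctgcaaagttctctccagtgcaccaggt
The Pdhb window holds 2 E boxes and 1 FOXO motif read on the other strand, and the Pdha1 window holds none of the motifs searched. Windows were found for 40 of the 46 listed genes, with 44 starts. Txnip, Slc2a3, Slc2a4, Pgk1 and Idh3a are among the genes without a window, so no motif was searched in them. The ACGTG core was in 17 of the 44 (38.6%), against 16.6% of all 33469 windows and 20.5% of the 13193 windows of genes named on the array. The member windows also had more G and C, with a median of 62.4% against 51.2% and 58.8%. CACGTG was in 7 of 44 (15.9%), against 5.59% of all windows and 7.59% of those of genes named on the array. GTAAACA was in 2 (4.55%), against 3.21% and 2.28%. The carbohydrate response element, taken as CACNNG and CNNGTG with 5 bases between, was in 0 of 44. It was in 0.427% of all windows and 0.432% of those of genes named on the array. At such shares, 0 of 44 cannot show a lack of it. All these motif counts are letter matches and were not tested as binding sites.

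The kinases of the complex did not move as a group. Pdk1 read 5.96 in the 2RS30 pool and 5.72 in the 2RH30 pool, a difference of -0.24, with 0.16 in a dim second probe set (3.89 and 4.05). Level-adjusted these were -0.39 and 0.61. Pdk2 differed by 0.02, from 6.06 to 6.08, and by 0.52 (5.32 and 5.84) in its other probe set. Level-adjusted these were -0.16 and 0.42. Pdk4, which fasting and glucocorticoids are known to raise, had the widest disagreement of any member, 3.00 on the log2 scale. Its brighter probe set read 4.96 and 5.85, a difference of 0.89 (level-adjusted 0.85). The other, just under the array median in 2RS30 and so dim, read 5.49 and 3.38, a difference of -2.11 (level-adjusted -1.79). No direction can be given for Pdk4.

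Of the 13 TCA and related enzymes measured, 12 were higher in 2RH30 as deposited and 10 level-adjusted, with a median of 0.40 and 0.28. Together with the 3 pyruvate dehydrogenase subunits the count was 15 of 16 (93.8%) as deposited and 13 of 16 (81.2%) level-adjusted, where 56.1% and 51.2% of all genes were above 0. The median of these 16 was 0.42 in either form. Of the 16, 5 (31.2%) were 2-fold or more higher as deposited, against 11.5% of all genes. Level-adjusted it was 2 (12.5%) against 8.95%. In either form 0 were lower by that much, where 9.62% of all genes were as deposited and 9.31% level-adjusted.

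The 3 TCA enzymes past 2-fold were Ogdh, Idh2 and Suclg2. Ogdh, the first subunit of the 2-oxoglutarate dehydrogenase complex, read 6.71 in the 2RS30 pool and 8.05 in the 2RH30 pool, a difference of 1.34 (level-adjusted 0.97). Idh2, the mitochondrial NADP-dependent isocitrate dehydrogenase, read 6.16 and 7.44, a difference of 1.28 (level-adjusted 0.99). Suclg2, the GTP-forming beta subunit of succinyl-CoA ligase, read 6.00 and 7.17, a difference of 1.17 (level-adjusted 0.92). Each has 1 probe set, and each fell just short of 2-fold level-adjusted. Suclg1, the alpha subunit that pairs with Suclg2, was the listed TCA gene with a lower value as deposited, 7.44 and 7.13, a difference of -0.32 (level-adjusted -0.68). These 2 subunits of succinyl-CoA ligase thus had differences of opposite sign. Sucla2, a further subunit of the enzyme outside the member list, was lower too. It read 6.85 and 6.05, a difference of -0.80 (level-adjusted -1.03).

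The NAD-dependent isocitrate dehydrogenase, the regulated enzyme of the cycle, has 3 kinds of subunit. Idh3b read 6.995 and 7.80, Idh3g 7.30 and 7.70 and the dim Idh3a 4.92 and 5.08. All 3 were higher in 2RH30, by 0.80, 0.40 and 0.17 (level-adjusted 0.42, 0.01 and 0.28). Pcx, listed now as Pc, the pyruvate carboxylase that refills the cycle with oxaloacetate, read 6.52 and 7.28, a difference of 0.76 (level-adjusted 0.46). Mdh2, the mitochondrial malate dehydrogenase, differed by 0.32 (level-adjusted 0.11), and Aco1, the cytosolic aconitase that also binds iron-responsive RNA elements, was dim and differed by 0.44 (level-adjusted 0.85).

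Probe sets of the other TCA genes disagreed. Cs, citrate synthase, read 8.11 and 8.18 in its brightest probe set, and 7.14 and 8.17, 6.96 and 7.11, and, dim, 4.57 and 4.36 in the others. Its 4 differences were 0.07, 1.03, 0.15 and -0.21 in that order (level-adjusted -0.40, 0.61, -0.17 and 0.11), so that 3 of the 4 turned sign. Mdh1, the cytosolic malate dehydrogenase of the malate-aspartate shuttle, read 7.64 and 7.96, a difference of 0.32 (level-adjusted -0.11), in a probe set that can match several transcripts. Its second probe set read 4.49 and 6.86, a difference of 2.37 (level-adjusted 2.25), the highest of all member probe sets. Idh1, the cytosolic isocitrate dehydrogenase, read 6.65 and 7.03, a difference of 0.39 (level-adjusted 0.09). Its dim second probe set read 4.27 and 3.11, a difference of -1.15 (level-adjusted -0.71), and its 2RH30 value lay under the 5th percentile of that array, 3.16.

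Of the 15 member genes with several probe sets, 8 (53.3%) had all of them on the same side of 0 as deposited, against 48.7% of the 4525 such genes on the array. Level-adjusted it was 4 of 15 (26.7%) against 41.8%. The 4 were Slc2a3, Slc2a4, Slc16a1 and Pdha1. The range between the probe sets of a member gene had a median of 1.02, more than the differences of most members. Of the 9 genes past 2-fold as deposited, 7 have 1 probe set and so no such check, Pdha1 was past 2-fold in both of its probe sets, and Slc2a4 in 1 of 2. Over all genes of the array with several probe sets that were not dim, the SD between the level-adjusted differences of a gene was 0.85 at levels of 5 to 7 and 0.64 above. The level-adjusted differences of 8 member genes (19.0%) exceeded this SD upwards and 3 (7.14%) downwards, against 10.5% and 10.2% of all genes. This SD holds no spread between animals.

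**Figure D4:**
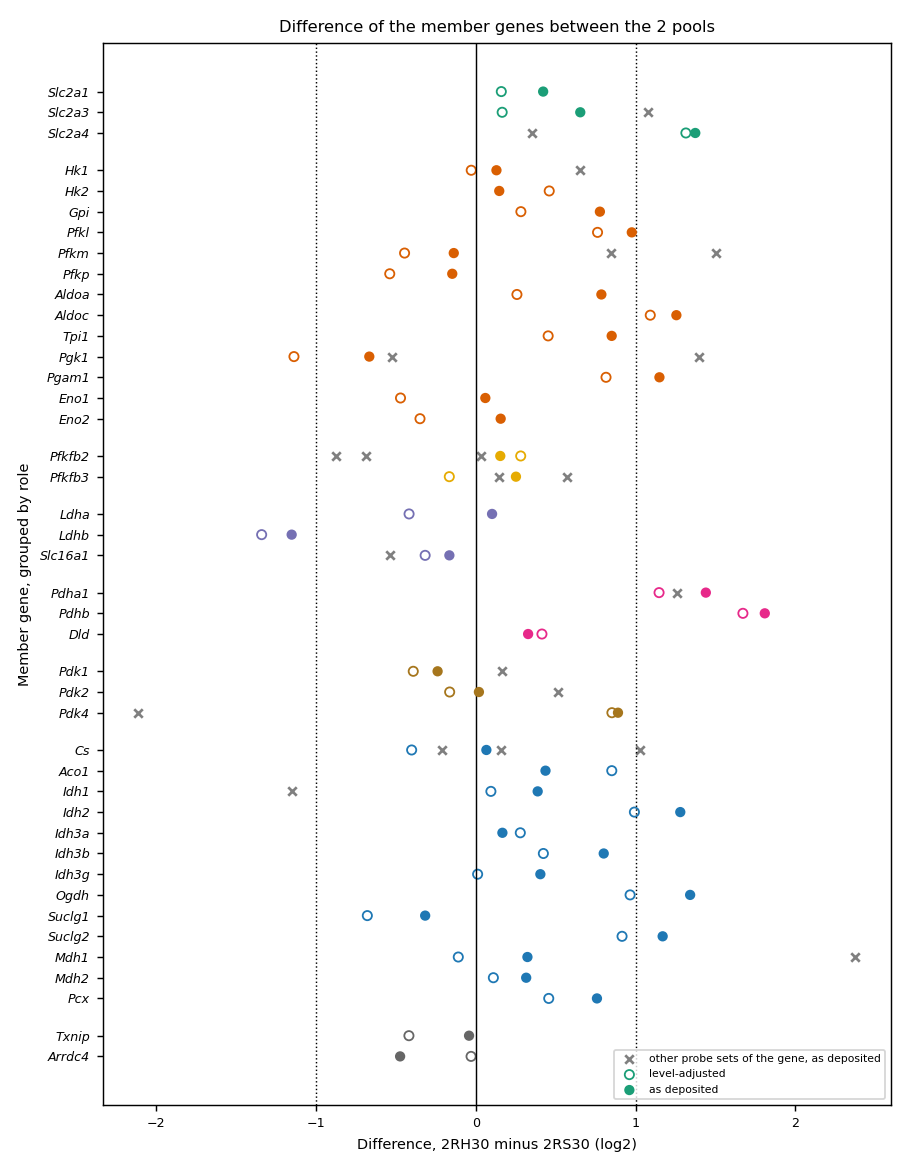
Horizontal axis, log2 difference of 2RH30 from 2RS30 for each of the 42 member genes (vertical axis, by role). Filled points are deposited differences, open points are level-adjusted, crosses are deposited differences of further probe sets, and dotted lines stand at 2-fold. Pdha1 has both of its deposited values past 2-fold, whereas Pdk4, Pgk1, Mdh1, Pfkm and Idh1 each have a cross 1.54 or more from the filled point.

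Txnip and Arrdc4 encode arrestins that hold back glucose uptake and that glucose is known to induce through the MondoA and ChREBP factors. Txnip read 7.41 in the 2RS30 pool and 7.36 in the 2RH30 pool, a difference of -0.04 (level-adjusted -0.42), in a probe set that can match several transcripts. Arrdc4 was dim and read 4.19 and 3.71, a difference of -0.47 (level-adjusted -0.03). Both values were lower in 2RH30 in either form, but hardly so for Txnip as deposited (-0.04) and for Arrdc4 level-adjusted (-0.03). Neither gene came near 2-fold. Of their regulators, Mlxip, which encodes MondoA, read 5.27 and 6.36, a difference of 1.09 (level-adjusted 0.95). Mlxipl, which encodes ChREBP, read 5.55 and 6.55, a difference of 0.997 (level-adjusted 0.82), which fell just short of 2-fold. Mlx, the partner that both need to bind DNA, read 8.11 and 8.31, a difference of 0.20 (level-adjusted -0.27).

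Other genes of glucose metabolism were read from further lists. Of 45 measured genes of transport, glycolysis, gluconeogenesis, pyruvate entry and shuttles, 4 (8.89%) were 2-fold or more higher and 4 (8.89%) lower, shares close to or below those of all genes. Beside Mlxip, the 4 higher genes include Pdp2, a phosphatase that reactivates pyruvate dehydrogenase, which read 6.64 and 8.31, a difference of 1.67 (level-adjusted 1.28). Bsg, the partner protein that brings MCT1 to the cell surface, read 8.35 and 9.82, a difference of 1.48 (level-adjusted 0.96), and Eno3, the muscle enolase, differed by 1.13 (level-adjusted 1.10). The mitochondrial pyruvate carrier subunits Mpc1 and Mpc2 differed by 0.76 and 0.79 (level-adjusted 0.47 and 0.51). Among lower genes that were not dim, Pck1, the gluconeogenic enzyme that insulin represses in liver, read 6.05 and 3.86, a difference of -2.19 (level-adjusted -2.06), and Slc2a5, the fructose transporter, 6.92 and 5.30, a difference of -1.62 (level-adjusted -1.81). The other lower genes, Slc2a2 and Ppargc1a, were dim.

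All 6 pentose phosphate genes measured were higher as deposited and 5 (83.3%) level-adjusted, where 56.1% and 51.2% of all genes were above 0, with medians of 0.64 and 0.24. Tkt, the transketolase of the non-oxidative branch, was 2-fold or more higher, from 6.24 in 2RS30 to 8.03 in 2RH30 (difference 1.79, level-adjusted 1.45). Level-adjusted the dim Rpe, which interconverts pentose phosphates, was past 2-fold too, at 1.25 (0.81 as deposited). Of 15 glycogen genes, 3 (20%) were 2-fold or more higher and 1 (6.67%) lower, where 11.5% and 9.62% of all genes were. Level-adjusted it was 4 (26.7%) and 2 (13.3%), against 8.95% and 9.31% of all genes, with Phkb (dim, 1.04) and Pgm2 (-1.04) added. The median turned from -0.11 to 0.21. The higher ones include the phosphorylase kinase subunits Phka1, from 4.14 to 5.96, and Phkg2, from 4.44 to 5.55, and the lower gene was the phosphoglucomutase Pgm1, from 6.63 to 5.63. The remaining higher gene, Gyg1, was dim.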

How the data were processed

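Total RNA from the left adrenal medulla, pooled from 6 rats per group, was hybridized to 1 Affymetrix rat genome array for each of 2RS30 and 2RH30. The authors deposited 1 value per probe set and array, read here as log2 from the range. The study describes its deposited data as quantile-normalized and its own analysis as GCRMA in Partek, and the submitters' processing notes name Affymetrix Expression Console. Which of these summarized the values used here was not stated. The array medians are alike (5.50 and 5.51), but the 5th percentiles are not (3.67 and 3.16). Of 31099 probe sets, 57 array controls were kept apart. Genes were named from the platform annotation, updated by gene number and synonym through RefSeq (GRCr8), which named 1 gene for 20826 probe sets, several for 436 and none for 9780; gene numbers matched for 20758. The brightest probe set over both arrays stood for a gene. With 1 array per group nothing was tested: differences were counted at 2-fold, the threshold of the study, and level-adjusted by lowess (fraction 0.3, 3 iterations). The number of arrays limits the precision. Dim probe sets lie below the array median on both arrays. Every member is named, and genes of the other pathway lists where they were 2-fold different and not dim. Mlx, Mlxipl, Mpc1, Mpc2, Slc2a2, Ppargc1a, Gyg1, Rpe, Phkb, Pgm2, Sucla2 and single cell type markers were added after their values were seen. The marker lists are otherwise given by counts, ranges and sums. The 4 promoters shown were picked after the values were seen. Members and lists were chosen with earlier results of these data known. The counting was tested on simulated data. Python 3.11.15, pandas 2.3.3, numpy 2.4.6, statsmodels 0.14.6 and matplotlib 3.10.9 were used. Alternatives were centring, quantile normalization, lowess, leaving out dim or multi-transcript probe sets, the mean over probe sets, keeping array controls, and 1.5-fold and 3-fold thresholds.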

Additional observations from a re-analysis of the deposited data

How the results depend on the processing

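Of the 42 member genes, 8 were 2-fold or more higher in 2RH30 and 1 lower. Quantile-normalizing the 2 arrays gave 5 and 2, and the lowess adjustment 4 and 2. The 1.5-fold threshold gave 16 and 2, and the 3-fold threshold 1 and 0. After lowess, 8.95% of all genes were 2-fold or more higher and 9.31% lower. For quantile normalization and the other thresholds the share of all genes was not computed, so those counts show no excess by themselves. Centring, the mean over probe sets, leaving out multi-transcript probe sets and keeping array controls gave 8 or 9 and 1, but not always the same genes. With the mean over probe sets Slc2a4 fell to 0.86 and Mdh1 rose to 1.35. Without multi-transcript probe sets Slc2a4 fell to 0.35, while Mdh1 rose to 2.37 and Pgk1 to 1.40. Leaving out dim probe sets also gave 8 and 1, but it could not have removed Pdhb, Slc2a4 or Aldoc, which passed through 2RH30 alone, so it bears on neither count nor on the medians without dim probe sets below. The median difference of the members, 0.32, was 0.15 after quantile normalization and 0.16 after lowess. That of the glycolytic enzymes, 0.16, was 0.47 without dim probe sets, 0.74 with the mean over probe sets and 0.78 without multi-transcript probe sets. That of the pyruvate dehydrogenase and TCA enzymes, 0.42, was 0.76 without dim probe sets. These medians were positive under all alternatives run. For single genes, 279 alternative values lay within the SD between probe sets of the main value and 7 did not. The 7 were those of Mdh1, Pdk4, Pfkm, Pgk1 and Slc2a4 when other probe sets were read. With the mean over probe sets, Pdk4 went from 0.89 to -0.61. For the 27 genes with 1 probe set, the choice of probe sets could not change the value. The 279 are therefore no measure of robustness. No gene at 2-fold or more as deposited changed sign. Pgk1 was lower by more than 2-fold after quantile normalization (-1.15) and lowess (-1.14). It was 0.07 with the mean over probe sets and 1.40 without multi-transcript ones. Beyond the change of probe sets, the cause was not tested. Below a mean level of 5 that SD, 1.47, rests on 12 genes. Pseudocounts do not apply to log values. No paired analysis was possible because 2RS30 and 2RH30 are single pools. The files hold no background signal, so no detection limit can be given for dim probe sets.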
